A study of Homo sapiens with 12 samples.

Results

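Interferon-stimulated genes are switched on when a cell meets interferon or viral nucleic acid, and many of them encode proteins that act directly on viruses. The 43 genes described here are such effectors, from the MX, OAS and IFIT families to ISG15, BST2, the IFITM proteins and viperin, together with STAT2 and IRF9, through which type I interferon acts. They were chosen as a list of known interferon-stimulated effectors, with earlier results of these data known. The counts of members below are therefore not from a list drawn up without sight of the data. Each member was read from the row with the most fragments under its symbol. All 43 were among the 26419 gene symbols kept on chromosomes 1 to 22 and X, and all 43 were among the 15671 genes with enough fragments to be tested.

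Poly(A) RNA of 2 human cancer lines was sequenced. PC3 is a prostate adenocarcinoma line and MG63 an osteosarcoma line, both given as WT in genotype. Every culture, controls included, was transfected by Lipofectamine RNAiMAX with siRNA at 10 nM, either a non-targeting control (siControl), an siRNA against LARP4A (siLARP4A) or an siRNA against LARP4B (siLARP4B), and RNA was taken after 72 h. Each of the 6 groups held 2 libraries, stated to be biological replicates, so no untransfected culture stands beside them. LARP4A, listed in the tables as LARP4, binds poly(A) tails, and both LARP4A and its relative LARP4B act on mRNA stability.

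In cells with an intact pathway, type I interferon binds IFNAR1 and IFNAR2, the kinases JAK1 and TYK2 phosphorylate STAT proteins, STAT2 among them, and these join IRF9 to form ISGF3. ISGF3 enters the nucleus and binds the interferon-stimulated response element (ISRE), a repeat of GAAA units in the promoters of its target genes. The cytosolic sensors RIG-I and MDA5 lead to the making of interferon itself. The products then block entry, bind foreign RNA, degrade RNA or tag proteins, and several of them, such as STAT2, IRF9 and USP18, feed back on the pathway. Cultured cells hold a low level of this programme without added interferon.

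The promoters of the list carry the element in their letters. RefSeq windows of 300 bases (GRCh38.p14, 250 before the start and 50 from it on) were found for 36 of the 43 members. The core GAAANNGAAA, read on both strands, lay in 25 of these 36 windows (69.4%), against 2.79% of the windows of tested genes and 3.65% of all 27195 windows. A spacing of 1 base, GAAANGAAA, was added after the sequences were seen, and lay in 14 of 36 windows (38.9%), against 2.62% of those of tested genes; one or the other was in 30 of 36 (83.3%), against 5.09%. The core of the interferon gamma-activated site, TTCNNNGAA, lay in 9 of 36 (25.0%), against 6.35%. MX2, OAS2, OASL, IFIT2, UBA7, USP18 and TRIM22 had no window in the table.

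Of the members with a window, the 6 that rose most in MG63 with siLARP4B are given as the 200 bases before the RefSeq start, 5′ to 3′ on the gene's strand, with capitals marking every match to either spacing on either strand.
MX1, chr21:41420358-41420557, plus strand: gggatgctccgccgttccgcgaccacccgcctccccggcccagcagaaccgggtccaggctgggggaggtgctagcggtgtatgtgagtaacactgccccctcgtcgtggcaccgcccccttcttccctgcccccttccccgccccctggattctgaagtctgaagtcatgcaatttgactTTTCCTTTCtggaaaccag
IFI44L, chr1:78620248-78620447, plus strand: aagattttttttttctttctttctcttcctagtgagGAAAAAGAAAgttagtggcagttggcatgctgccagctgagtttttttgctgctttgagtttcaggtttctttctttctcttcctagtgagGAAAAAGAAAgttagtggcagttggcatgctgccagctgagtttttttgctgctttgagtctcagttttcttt
ISG15, chr1:1013297-1013496, plus strand: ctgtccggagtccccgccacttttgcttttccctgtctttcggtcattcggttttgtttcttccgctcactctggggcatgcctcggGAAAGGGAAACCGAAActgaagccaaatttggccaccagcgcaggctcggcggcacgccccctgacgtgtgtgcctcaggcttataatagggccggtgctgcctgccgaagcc
IFI6, chr1:27672193-27672392, minus strand: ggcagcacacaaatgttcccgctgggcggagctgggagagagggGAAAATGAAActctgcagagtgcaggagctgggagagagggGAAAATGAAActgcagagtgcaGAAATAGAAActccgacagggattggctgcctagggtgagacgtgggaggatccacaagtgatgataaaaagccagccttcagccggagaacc
RSAD2, chr2:6865685-6865884, plus strand: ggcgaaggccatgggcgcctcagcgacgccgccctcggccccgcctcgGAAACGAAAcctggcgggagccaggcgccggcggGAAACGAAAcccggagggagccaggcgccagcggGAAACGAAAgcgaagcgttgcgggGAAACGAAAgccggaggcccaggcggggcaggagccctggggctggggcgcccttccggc
OAS1, chr12:112906762-112906961, plus strand: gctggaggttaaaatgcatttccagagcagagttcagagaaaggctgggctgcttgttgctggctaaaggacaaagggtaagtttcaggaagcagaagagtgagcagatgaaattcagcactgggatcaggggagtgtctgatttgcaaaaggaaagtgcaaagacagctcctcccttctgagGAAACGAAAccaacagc
IFI44L holds a repeated stretch with 1 core in each copy, and IFI6 has 3 cores. In ISG15, 2 matches share a GAAA unit and form 1 run. MX1 has a reverse-strand match of the 1-base spacing in the printed stretch, and its core lies after the start, at bases 12 to 21. OAS1 and RSAD2 have no core in the window: OAS1 has 1 match of the closer spacing and RSAD2 has 4. The RefSeq start of RSAD2 lies 11892 bases from the start of the model counted here, beside the start of CMPK2 on the other strand; IFIT3, SP110 and CMPK2 also have a RefSeq start away from that of the counted model, by 4532, 5652 and 816 bases.

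The members with and without the core were set side by side, with no test. With siLARP4B in MG63 the median log2 fold change was 1.06 over the 25 members with the core and 1.10 over the 11 without it, and 19 of the 25 and 10 of the 11 rose. RSAD2, SP110 and CMPK2 are among the 11, and IFIT3 among the 25, and their windows lie away from the start of the counted model. For these members the window may not hold the promoter of the counted transcript. With siLARP4A in PC3 the medians were -0.43 and -0.28, with 11 and 5 members lower and 3 and 1 higher. Of all tested genes 19.0% were lower and 17.0% higher there. ISG20, RTP4, LGALS3BP, DDX60, DDX60L and TRIM21 all have the core and did not pass the threshold with siLARP4B in MG63. These are matches of letters and no binding was measured.

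Library totals, as the scaled fragment values imply them, ran from 16950000 to 24865000. Epithelial markers summed to between 648 and 758 FPKM in PC3 libraries and between 61.7 and 79.1 in MG63 libraries, and osteoblast and mesenchymal markers to between 40.3 and 45.8 in PC3 and between 1930 and 2700 in MG63. FOLH1, a prostate marker, was at 0 in every group, and SP7 and IBSP, osteoblast markers, were at or near 0 in MG63. Of 7 leukocyte markers counted, CD3E and MS4A1 were at 0 in every group, and the 7 together summed to at most 3.83 FPKM in a library. The siRNAs lowered their targets: LARP4 changed by -3.01 in PC3 and -1.94 in MG63 with siLARP4A, and LARP4B by -2.48 and -1.69 with siLARP4B, on the log2 scale. LARP4 rose by 0.44 with siLARP4B in MG63.

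Fold changes below are log2 fold changes with their standard error (SE) from edgeR's quasi-likelihood test on fragment counts, and adjusted p-values are Benjamini-Hochberg values over all 15671 genes, with a threshold of 0.05. Levels are FPKM, fragments scaled to the length of the counted model and to the library total, with library 1 first and library 2 second in each group. "Rose" and "fell" are used for genes past the threshold. RNA came from whole cultures, so a change in how many cells express a gene and a change in RNA per cell cannot be told apart. How strand was handled is not given in the sources used here, and exons of MX1, OAS1, IFIT2, ISG15, IFITM3, SP110 and XAF1 overlap a gene on the other strand and those of IFIT2, UBA7 and TRIM22 one on the same strand in GENCODE release 29, so fragments could be shared there.

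With siControl, MG63 held more RNA of most members than PC3. The median level over the 43 members was 3.85 FPKM in PC3 and 4.75 FPKM in MG63, and the members took 0.0764% and 0.0798% of the fragments in the 2 PC3 siControl libraries and 0.166% and 0.17% in the 2 of MG63. In the direct comparison 32 members were lower in PC3 and 8 were higher, where 39.7% of all tested genes were lower and 42.1% higher. With library totals in place of TMM scaling (edgeR's adjustment for the makeup of each library), the median over all genes moved from 0.02 to 0.16 on the log2 scale. In that fit 30 members were lower and 11 higher, where 5498 of all 15671 tested genes were lower and 7320 higher. The widest gaps below MG63 were for BST2 (4.04 ± 0.893 FPKM in PC3 and 158 ± 6.87 in MG63, SD, n = 2), IFITM1 (3.27 ± 1.62 and 56.6 ± 2.66), UBA7, TRIM22 and XAF1. ISG20 stood the other way (6.26 ± 0.506 FPKM in PC3 and 0.687 ± 0.0273 in MG63), and ISG15 was the most abundant member in PC3 (87.1 ± 3.13 FPKM) at above its level in MG63 (37.4 ± 3.45). IFITM3 was the most abundant member in MG63, at 331 ± 3.68 FPKM. HERC6, USP18 and STAT2 did not differ past the threshold. In PC3 siControl, MX2, RTP4, TRIM22, XAF1 and EPSTI1 had under 10 fragments in at least 1 library, and in MG63 RTP4 alone did.

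**Figure D1:**
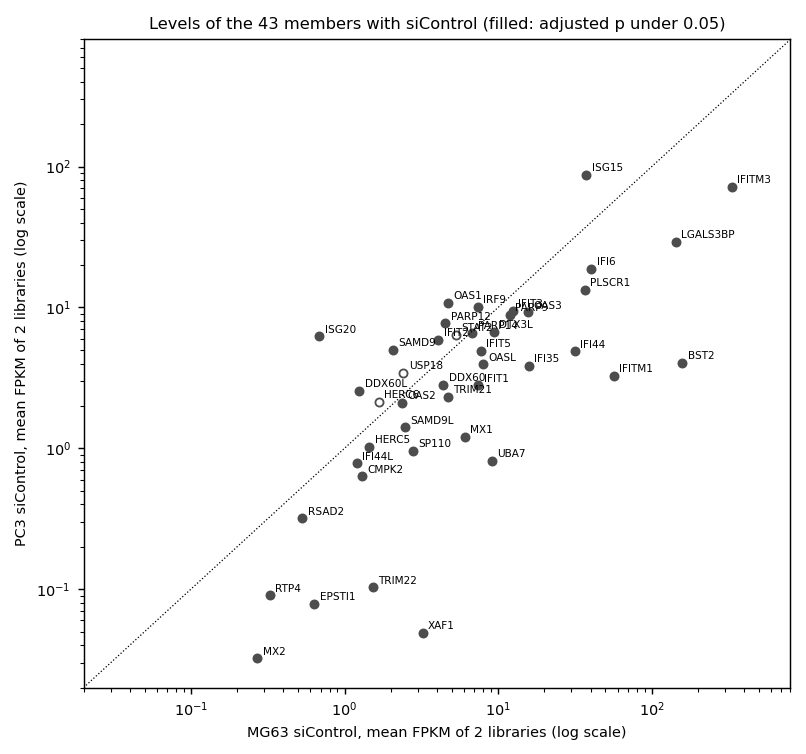
Each point is 1 of the 43 members, with its mean FPKM in the 2 MG63 siControl libraries on the horizontal axis and in the 2 PC3 siControl libraries on the vertical axis, both on log scales; filled points differ past an adjusted p of 0.05 and the dotted line marks equal levels. Most points lie under the line, with XAF1, BST2, IFITM1 and TRIM22 farthest below it and ISG20 and ISG15 above it.

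The largest response of the list was to siLARP4B in MG63. There 35 of the 43 members rose and 0 fell, where 18.8% of all tested genes rose and 16.3% fell. A rise of at least 2-fold was seen in 25 of the 43 members, where 1.13% of all tested genes had one. The median log2 fold change over the members was 1.14, beside 0.00 over all genes tested. In 39 members both siLARP4B libraries lay above both siControl libraries in FPKM (30.3% of tested genes did so), and UBA7 alone lay wholly below (35.0%). The members took 0.308% and 0.325% of the fragments in the siLARP4B libraries. ISG20, UBA7, RTP4, LGALS3BP, DDX60, DDX60L, TRIM21 and IFI35 did not pass the threshold.

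siLARP4A in MG63 gave a smaller rise. With it 21 members rose and 0 fell, where 14.5% of all tested genes rose and 11.9% fell, and 4 rose at least 2-fold (MX1, MX2, RSAD2 and EPSTI1), where 1.55% of all tested genes did. The median was 0.27, beside 0.01 over all genes tested. Both siLARP4A libraries lay above both siControl libraries in 35 members (31.7% of tested genes) and below them in 0 (32.5%). The count of members past the threshold rested partly on single libraries: without MG63 siControl replicate 2 it was 13. In at least 1 alternative 10 of the 21 rises were lost (MX2, OAS1, IFIT2, IFIT3, HERC6, USP18, PARP12, DDX60L, IFI44 and IFI35).

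PC3 gave a mixed response to siLARP4B. There 21 members rose and 4 fell, where 21.3% of all tested genes rose and 23.4% fell, and 5 rose at least 2-fold (MX2, IFIT1, BST2, RSAD2 and IFI44L), where 3.02% of all tested genes did. The median was 0.36, beside 0.00 over all genes. Both siLARP4B libraries lay above both siControl libraries in 26 members (40.7% of tested genes) and below them in 6 (31.4%). Replicate 2 of siLARP4B lay higher than replicate 1: each library set against the siControl library of its own number gave medians of 0.54 and 0.23. The median over both was 0.55 without siLARP4B replicate 1 and 0.53 without siControl replicate 1. With library totals in place of TMM scaling, the share of higher calls among all genes called moved from 47.7% to 61.4%. In that fit 24 members rose and 2 fell, where 4520 of all 15671 tested genes rose and 2845 fell.

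With siLARP4A in PC3 most members that moved went down. There 18 members fell and 4 rose, where 19.0% of all tested genes fell and 17.0% rose; 5 fell at least 2-fold (1.31% of tested genes), among them XAF1 and EPSTI1, which had too few fragments for a fold. The median was -0.28, beside 0.00 over all genes, and it was -0.28 with XAF1 set at its bound. Both siLARP4A libraries lay below both siControl libraries in 22 members (30.8% of tested genes) and above them in 8 (32.8%). The median was -0.18 without siLARP4A replicate 2 and -0.10 on log2(FPKM + 1). In at least 1 alternative setting 9 of the 18 falls were lost (OAS2, ISG20, IFITM1, PARP9, DDX60, STAT2, IFI44L, XAF1 and EPSTI1), and so were the rises of DDX60L and SAMD9L.

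Between the lines, the signed log2 effect of siLARP4B was lower in PC3 than in MG63 for 30 members and higher for 1, LGALS3BP, by the interaction term, where 17.5% and 10.3% of all tested genes passed in these directions. The PC3 value was itself below 0 for 10 of the 30: among these, ISG20, DDX60 and IFI35 fell in PC3 and did not pass in MG63, and PARP12 fell in PC3 and rose in MG63. With library totals in place of TMM scaling, the share of higher calls among all genes called in this comparison moved from 37.0% to 60.2%, and the member median moved from -0.71 to -0.59. The signed effect of siLARP4A was lower in PC3 for 24 members and higher for 1, IFI44, where 7.3% and 4.09% of all tested genes passed. Without PC3 siControl replicate 1 fewer members passed the threshold. With library totals the share of higher calls among all genes called moved from 35.9% to 50.0%. In that fit 21 members were lower and 1 higher, where 885 of all 15671 tested genes were lower and 886 higher. Across the 43 members, log2 fold changes with siLARP4B in PC3 and MG63 had a Pearson r of 0.80 and a Spearman rho of 0.78, and those with siLARP4A -0.27 and -0.09. These describe the list only: members at 1 locus or in 1 family are not independent, and the values of each line come from 1 set of siControl libraries. With siLARP4B 20 of the 43 members rose in both lines, where 7.49% of all tested genes did. These are 20 of the 35 members that rose in MG63 and 20 of the 21 that rose in PC3. Over all tested genes, 1174 rose in both lines, of 2946 that rose in MG63 and 3336 that rose in PC3. LGALS3BP rose in PC3 and did not pass in MG63.

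**Figure D2:**
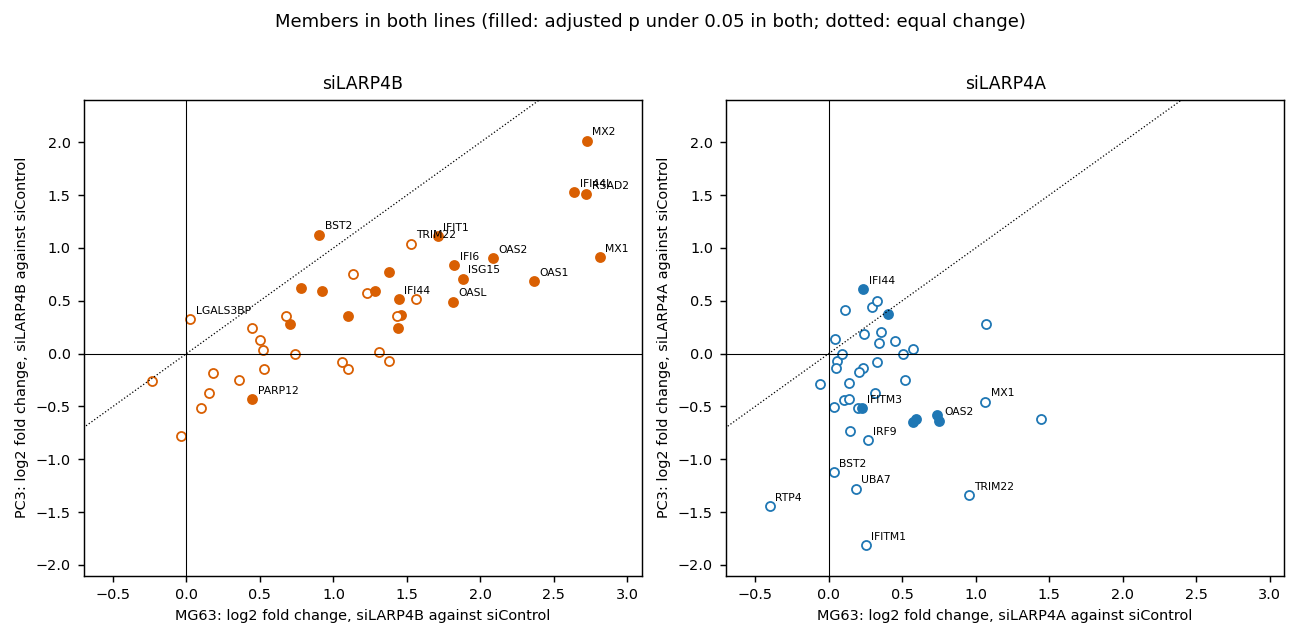
Each point is 1 member, with its log2 fold change against siControl in MG63 on the horizontal axis and in PC3 on the vertical axis, for siLARP4B on the left and siLARP4A on the right; filled points passed the threshold in both lines and the dotted line marks equal change. With siLARP4B 41 of the 43 points lie below the line, while with siLARP4A OAS1, OAS2, IFI6, IFITM3 and IFI44L are right of 0 and below 0; XAF1 and EPSTI1 are not drawn on the right.

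The siRNAs were also set directly against each other within each line. In PC3 27 members were lower with siLARP4A than with siLARP4B and 4 were higher (DTX3L, PARP12, DDX60L and TRIM21), where 27.2% and 27.0% of all tested genes were lower and higher, and the median difference was -0.62. In MG63 33 members were lower with siLARP4A and 1 was higher (UBA7), where 21.5% and 22.1% of all tested genes were lower and higher, and the median difference was -0.85. Of the 43 members, 17 were at least 2-fold lower with siLARP4A in PC3 (4.65% of all tested genes) and 13 in MG63 (1.37%).

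MX1 and MX2 are dynamin-like GTPases that trap incoming viral nucleocapsids, and they sit side by side on chromosome 21. In MG63 MX1 (chromosome 21, 41420558 to 41459214, plus strand) was at 6.56 and 5.58 FPKM with siControl, 12.4 and 12.7 with siLARP4A, and 39.3 and 44.4 with siLARP4B. The groups did not overlap and stepped up from siControl to siLARP4A to siLARP4B, with log2 fold changes of 1.07 (SE 0.13, adjusted p 2.6e-06) and 2.81 (SE 0.12, adjusted p 2.2e-13); the latter is a 7.03-fold rise and the largest of the list. In PC3 MX1 was at 1.45 and 0.965 FPKM with siControl, 1.13 and 0.569 with siLARP4A, and 1.81 and 2.89 with siLARP4B. The siControl and siLARP4A libraries overlapped (-0.46 (SE 0.28, adjusted p 0.22)), and MX1 rose with siLARP4B by 0.91 (SE 0.24, adjusted p 0.003), a call lost without PC3 siControl replicate 2 or siLARP4B replicate 2. MX2 rose with both siRNAs in MG63, by 1.45 and 2.72, on 21 and 13 fragments with siControl and 107 and 122 with siLARP4B. In PC3 its fragments were 3 and 1 with siControl, 2 and 1 with siLARP4A and 5 and 12 with siLARP4B, so its call there (2.02, adjusted p 0.031) rests on a handful of fragments and was lost in 4 alternatives.

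OAS1, OAS2 and OAS3 make the oligoadenylate signal that activates RNase L when they bind double-stranded RNA; OASL is a relative that aids RIG-I and ISG20 is an RNA exonuclease. OAS1 to OAS3 lie in a row on chromosome 12. In MG63 OAS1 (chromosome 12, 112906962 to 112919903, plus strand) was at 4.78 and 4.72 FPKM with siControl, 6.39 and 7.53 with siLARP4A, and 23.6 and 24.4 with siLARP4B. It rose with both siRNAs, by 0.57 (SE 0.13, adjusted p 0.0023) and 2.36 (SE 0.11, adjusted p 5.4e-13). In PC3 OAS1 was at 10.5 and 11.2 FPKM with siControl, 6.66 and 7.34 with siLARP4A, and 16.2 and 19.8 with siLARP4B. Here the groups split in opposite directions around siControl: OAS1 fell with siLARP4A by -0.65 (SE 0.11, adjusted p 7.9e-05) and rose with siLARP4B by 0.69 (SE 0.10, adjusted p 7.3e-06). The line difference in its siLARP4A effect was -1.22 (SE 0.17, adjusted p 5.5e-05).

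OAS2 followed OAS1. It was at 2.1 and 2.1 FPKM with siControl, 1.54 and 1.14 with siLARP4A, and 3.71 and 4.39 with siLARP4B in PC3. In MG63 it was at 2.57 and 2.15 FPKM with siControl, 4.09 and 3.76 with siLARP4A, and 8.88 and 10.8 with siLARP4B. No 2 groups overlapped in either line, and its changes were -0.64 and 0.90 in PC3 and 0.75 and 2.09 in MG63, siLARP4A first, all past the threshold; the fall in PC3 was lost without siLARP4A replicate 2. OAS3, the most abundant of the group in MG63, passed the threshold in that line alone. In MG63 it was at 15.4 and 15.8 FPKM with siControl, 22.7 and 23.2 with siLARP4A, and 36.6 and 43.1 with siLARP4B, and rose by 0.58 and 1.38. In PC3 it was at 9.19 and 9.29 FPKM with siControl, 9.96 and 9.23 with siLARP4A, and 8.52 and 9.68 with siLARP4B, with all 3 groups overlapping, and the line difference in its siLARP4B effect was -1.45 (SE 0.10, adjusted p 1.4e-09). OASL rose with siLARP4B in both lines (0.49 in PC3 and 1.81 in MG63) and did not pass with siLARP4A in either (-0.07 and 0.06).

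ISG20 fell in PC3 with both siRNAs. In PC3 it was at 6.62 and 5.9 FPKM with siControl, 4.01 and 4.96 with siLARP4A, and 3.72 and 3.79 with siLARP4B. The changes were -0.50 (SE 0.11, adjusted p 0.0012) and -0.78 (SE 0.12, adjusted p 1.2e-05), siLARP4A first; the first call was lost without siLARP4A replicate 1. In MG63 it was at 0.667 and 0.706 FPKM with siControl, 0.772 and 0.62 with siLARP4A, and 0.76 and 0.551 with siLARP4B, a low level with overlapping groups.

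The IFIT proteins bind viral RNA, IFIT1 through caps that lack the host's methyl mark, and IFIT2 and IFIT3 join it in a complex. The 4 genes lie within 1 cluster on chromosome 10. All 4 rose with siLARP4B in MG63, where 18.8% of all tested genes did. IFIT1 rose the most: it was at 7.23 and 7.65 FPKM with siControl, 7.89 and 7.79 with siLARP4A, and 23.7 and 24.1 with siLARP4B there. The siLARP4B libraries stood apart from the other 4, with a change of 1.71 (SE 0.08, adjusted p 2.2e-13), and siLARP4A did not move it past the threshold (0.09 (SE 0.08, adjusted p 0.44)). In PC3 IFIT1 was at 3.13 and 2.46 FPKM with siControl, 2.81 and 2.81 with siLARP4A, and 5.89 and 6.53 with siLARP4B, the same picture, with a rise of 1.11 (SE 0.10, adjusted p 4.7e-09) for siLARP4B. IFIT3, the most abundant of the 4 with siControl in both lines, was at 12.6 and 12.3 FPKM with siControl, 14.7 and 14.2 with siLARP4A, and 30.4 and 36.0 with siLARP4B in MG63. In PC3 it was at 9.38 and 9.55 FPKM with siControl, 9.06 and 8.23 with siLARP4A, and 11.9 and 11.2 with siLARP4B. It rose by 1.44 in MG63 and by 0.25 in PC3 with siLARP4B, the latter a call lost without any 1 of 3 libraries (siControl replicate 1 or 2, or siLARP4B replicate 1). IFIT2 rose by 0.77 in PC3 and 1.38 in MG63 with siLARP4B and by 0.45 in MG63 with siLARP4A. IFIT5 rose by 0.52 with siLARP4B in MG63 and was at 0.03 in PC3. No member of this family passed the threshold with siLARP4A in PC3, where the 4 values ran from -0.14 to 0.13.

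**Figure D3:**
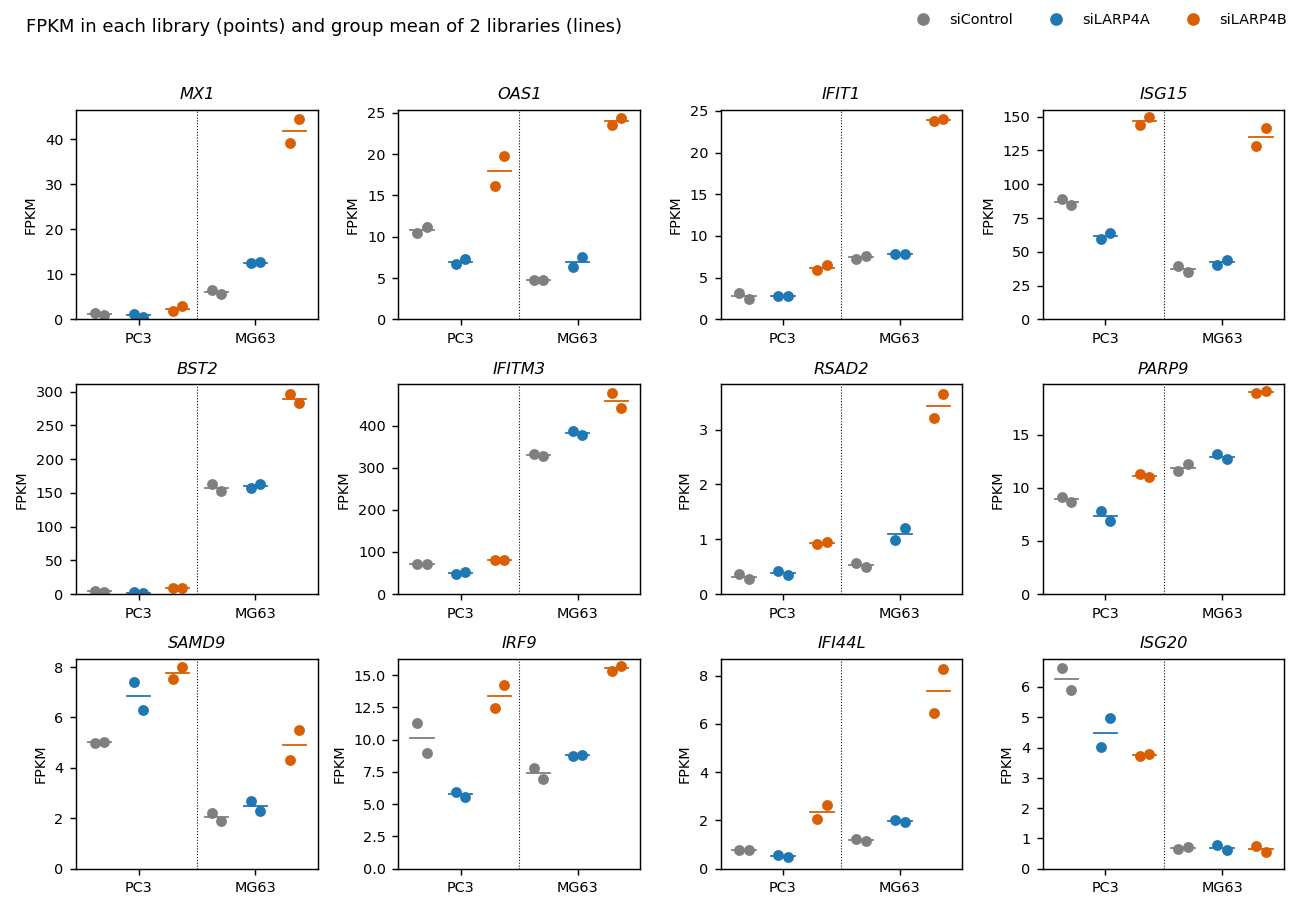
FPKM of 12 members in each library (points) with the mean of the 2 libraries of a group (lines), PC3 left and MG63 right of the dotted line, siControl in grey, siLARP4A in blue and siLARP4B in orange; each panel has its own scale from 0. In MG63 the siLARP4B libraries are the highest of their line in every panel but that of ISG20, and in PC3 the siLARP4A libraries lie below siControl for OAS1, ISG15, BST2, IFITM3, PARP9, IRF9, IFI44L and ISG20.

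ISG15 is a ubiquitin-like protein that is joined to target proteins by UBA7, its activating enzyme, and by the ligase HERC5, and is removed by USP18, which also dampens signalling at the type I receptor; HERC6 is a relative of HERC5. In PC3 ISG15 (chromosome 1, 1013497 to 1014539, plus strand) was at 89.3 and 84.9 FPKM with siControl, 59.1 and 63.7 with siLARP4A, and 144 and 149.5 with siLARP4B. The 3 groups lay apart, siLARP4A lowest and siLARP4B highest, with changes of -0.52 (SE 0.07, adjusted p 8.6e-06) and 0.71 (SE 0.07, adjusted p 2.4e-08). In MG63 it was at 39.8 and 34.9 FPKM with siControl, 40.3 and 44.0 with siLARP4A, and 128 and 142 with siLARP4B. There siLARP4B raised it 3.68-fold, a log2 fold change of 1.88 (SE 0.08, adjusted p 1.5e-13), and siLARP4A did not pass (0.20 (SE 0.09, adjusted p 0.1)).

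UBA7 rose in none of the 4 comparisons with siControl. In MG63 it was at 8.83 and 9.38 FPKM with siControl, 10.5 and 9.98 with siLARP4A, and 8.02 and 7.17 with siLARP4B. The siLARP4B libraries were the lowest of the line, a change of -0.23 (SE 0.10, adjusted p 0.064) that missed the threshold; it passed with library totals (adjusted p 0.036), in a fit of the MG63 libraries alone (0.019) and without siLARP4B replicate 1 (0.044), and did not in the 10 other alternatives. In PC3, where it is scarce, it was at 0.64 and 0.985 FPKM with siControl, 0.402 and 0.255 with siLARP4A, and 0.727 and 0.678 with siLARP4B. It fell with siLARP4A, by -1.28 (SE 0.26, adjusted p 0.00042), and not past the threshold with siLARP4B (-0.26). HERC5, HERC6 and USP18 rose with siLARP4B in MG63, by 1.10, 1.46 and 1.43. Of these HERC6 alone passed in PC3 with siLARP4B (0.37, adjusted p 0.027), a call lost in DESeq2 and without siControl replicate 2 or siLARP4B replicate 2, and none passed there with siLARP4A. With siLARP4A in MG63, HERC6 and USP18 rose by 0.52 and 0.51, and HERC5 was at 0.05.

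The next group acts at membranes or outside the cell: BST2 (tetherin) holds budding virions at the surface, IFITM1 and IFITM3 block fusion, PLSCR1 is a scramblase that also restricts entry, RTP4 is a chaperone of receptors, IFI6 is a mitochondrial and endoplasmic reticulum protein and LGALS3BP is secreted. In this group 6 of 7 members fell with siLARP4A in PC3, where 19.0% of all tested genes fell. RTP4 was the exception, on few fragments (3 and 2 with siControl and 0 and 2 with siLARP4A). With siLARP4B in PC3 3 of the 7 rose, where 21.3% of all tested genes did. In MG63 5 of the 7 rose with siLARP4B, where 18.8% of all tested genes did, and 2 with siLARP4A, where 14.5% did.

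BST2 had the widest fold gap between the lines within this group with siControl. In PC3 it was at 4.67 and 3.41 FPKM with siControl, 2.53 and 1.0 with siLARP4A, and 8.91 and 9.19 with siLARP4B. The groups did not overlap, with changes of -1.12 (SE 0.24, adjusted p 0.0009) and 1.13 (SE 0.18, adjusted p 2.3e-05), though the 2 siLARP4A libraries also lay far apart from each other. In MG63 BST2 was at 163 and 153 FPKM with siControl, 157 and 162 with siLARP4A, and 296 and 283 with siLARP4B. It rose with siLARP4B by 0.90 (SE 0.08, adjusted p 4.7e-09) and overlapped siControl with siLARP4A. The siLARP4B effect on BST2 did not differ past the threshold between the lines (0.22 (SE 0.20, adjusted p 0.45)).

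IFITM1 was at 4.42 and 2.12 FPKM with siControl, 1.26 and 0.473 with siLARP4A, and 3.98 and 6.09 with siLARP4B in PC3. It fell with siLARP4A by -1.81 (SE 0.39, adjusted p 0.00073), lost without siControl replicate 1, the library with the most IFITM1 of the 2 controls. In MG63 it was at 58.5 and 54.7 FPKM with siControl, 67.0 and 66.2 with siLARP4A, and 133 and 127 with siLARP4B, and rose with siLARP4B by 1.23 (SE 0.10, adjusted p 3.2e-09). The 2 libraries of a group lay closer together for IFITM3. It was at 72.2 and 71.6 FPKM with siControl, 48.2 and 53.2 with siLARP4A, and 80.2 and 81.5 with siLARP4B in PC3, with a fall of -0.52 for siLARP4A, and at 334 and 329 FPKM with siControl, 387 and 377 with siLARP4A, and 477 and 441 with siLARP4B in MG63, with rises of 0.23 and 0.50. The line difference in its siLARP4A effect was -0.74 (SE 0.08, adjusted p 4.1e-06). IFITM1, IFITM2 and IFITM3 are close relatives side by side on chromosome 11, and fragments could be split between them: IFITM1 shares 351 exon bases with IFITM2 on the same strand in GENCODE.

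IFI6 rose in MG63 and LGALS3BP did not pass there. IFI6 was at 42.2 and 38.8 FPKM with siControl, 61.1 and 59.7 with siLARP4A, and 135 and 146 with siLARP4B there, and rose by 0.60 and 1.82. In PC3 it was at 21.0 and 16.5 FPKM with siControl, 13.6 and 10.8 with siLARP4A, and 33.1 and 36.0 with siLARP4B, with changes of -0.62 (SE 0.12, adjusted p 0.00034) and 0.84 (SE 0.11, adjusted p 1.1e-06). LGALS3BP was at 144 and 142 FPKM with siControl, 159 and 153 with siLARP4A, and 146 and 139.9 with siLARP4B in MG63, a level that did not change past the threshold with either siRNA (0.14 and 0.03). In PC3 LGALS3BP was at 31.8 and 26.9 FPKM with siControl, 18.2 and 17.4 with siLARP4A, and 38.7 and 37.0 with siLARP4B. There it fell with siLARP4A by -0.73 (SE 0.07, adjusted p 3.3e-08) and rose with siLARP4B by 0.33 (SE 0.07, adjusted p 0.00032), and it was the 1 member with a signed siLARP4B effect past the threshold higher in PC3 than in MG63 (0.30 (SE 0.09, adjusted p 0.012), a call lost in at least 1 alternative).

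PLSCR1 was at 13.9 and 12.7 FPKM with siControl, 10.3 and 9.42 with siLARP4A, and 13.0 and 13.0 with siLARP4B in PC3 and at 36.0 and 37.7 FPKM with siControl, 40.2 and 38.2 with siLARP4A, and 73.6 and 77.3 with siLARP4B in MG63. It fell with siLARP4A in PC3 (-0.44) and rose with siLARP4B in MG63 (1.06). Its siLARP4B value in PC3 was -0.08, and the line difference of that effect was -1.14 (SE 0.10, adjusted p 1.7e-08). RTP4 passed in none of the 4 comparisons with siControl.

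RSAD2 encodes viperin, which turns CTP into a chain-ending nucleotide, and CMPK2, its neighbour on the other strand of chromosome 2, is a mitochondrial nucleotide kinase that acts with it. In MG63 RSAD2 was at 0.568 and 0.492 FPKM with siControl, 0.991 and 1.2 with siLARP4A, and 3.21 and 3.66 with siLARP4B. It stepped up with each siRNA, by 1.07 (SE 0.22, adjusted p 0.0007) and 2.72 (SE 0.18, adjusted p 1.7e-10). In PC3 it was at 0.359 and 0.277 FPKM with siControl, 0.413 and 0.356 with siLARP4A, and 0.919 and 0.952 with siLARP4B; siLARP4A overlapped siControl and siLARP4B rose by 1.51 (SE 0.25, adjusted p 3.4e-05). CMPK2 rose only where RSAD2 rose most. It was at 1.38 and 1.22 FPKM with siControl, 1.67 and 1.61 with siLARP4A, and 3.18 and 3.11 with siLARP4B in MG63, a rise of 1.31 with siLARP4B, and at 0.813 and 0.453 FPKM with siControl, 0.814 and 0.63 with siLARP4A, and 0.571 and 0.744 with siLARP4B in PC3, where all groups overlapped and the siLARP4B value was 0.01 (SE 0.27). The pair shares 14 exon bases in GENCODE.

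PARP9, PARP12 and PARP14 belong to the family that adds ADP-ribose to proteins, and DTX3L is the ubiquitin ligase partner of PARP9. All 4 rose with siLARP4B in MG63, by less than 2-fold, where 18.8% of all tested genes rose. PARP14, with the largest rise of the 4, was at 6.46 and 7.14 FPKM with siControl, 7.63 and 7.88 with siLARP4A, and 10.3 and 11.9 with siLARP4B there, a change of 0.74 (SE 0.08, adjusted p 1.8e-07). In PC3 PARP14 was at 6.17 and 7.06 FPKM with siControl, 6.32 and 5.44 with siLARP4A, and 6.86 and 6.75 with siLARP4B, with values of -0.18 and 0.00 that did not pass. PARP9, the most abundant of the 4 with siControl in both lines, was at 9.13 and 8.69 FPKM with siControl, 7.81 and 6.91 with siLARP4A, and 11.3 and 11.0 with siLARP4B in PC3 and at 11.6 and 12.2 FPKM with siControl, 13.2 and 12.7 with siLARP4A, and 18.9 and 19.1 with siLARP4B in MG63. It fell with siLARP4A in PC3 (-0.28 (SE 0.08, adjusted p 0.0052), lost without siControl replicate 1 or siLARP4A replicate 2), rose there with siLARP4B (0.28) and rose with siLARP4B in MG63 (0.71).

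PARP12 was the 1 member called in opposite directions in the 2 lines with siLARP4B. It was at 7.56 and 7.87 FPKM with siControl, 7.1 and 7.64 with siLARP4A, and 6.1 and 5.68 with siLARP4B in PC3, a fall of -0.43 (SE 0.09, adjusted p 0.00037), and at 4.52 and 4.54 FPKM with siControl, 5.83 and 5.38 with siLARP4A, and 6.3 and 5.83 with siLARP4B in MG63, a rise of 0.45 (SE 0.09, adjusted p 0.00071). The siLARP4B libraries lay below the other 4 in PC3 and above siControl in MG63, and the line difference was -0.88 (SE 0.13, adjusted p 2.4e-05). DTX3L, which shares 217 exon bases with PARP9 on the other strand, rose by 0.34 and 0.53 in MG63 and did not pass in PC3 (0.10 and -0.15).

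DDX60 and DDX60L are helicase-like relatives side by side on chromosome 4, and SAMD9 and SAMD9L are restriction factors of poxviruses side by side on chromosome 7. In PC3 3 of these 4 rose with siLARP4A, where 17.0% of all tested genes did. SAMD9 was at 5.0 and 5.04 FPKM with siControl, 7.4 and 6.29 with siLARP4A, and 7.53 and 8.01 with siLARP4B there, and rose with both siRNAs, by 0.44 (SE 0.10, adjusted p 0.0011) and 0.59 (SE 0.10, adjusted p 4e-05). In MG63 SAMD9 was at 2.22 and 1.9 FPKM with siControl, 2.68 and 2.3 with siLARP4A, and 4.3 and 5.52 with siLARP4B, and rose with siLARP4B by 1.28 (SE 0.12, adjusted p 1.8e-08). SAMD9L rose by 0.50 with siLARP4A in PC3 and by 0.67 with siLARP4B in MG63. DDX60L rose by 0.38 and 0.41 with siLARP4A in PC3 and MG63; the PC3 calls of SAMD9L and DDX60L were lost without siLARP4A replicate 1 or siControl replicate 2, and on the FPKM scale.

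DDX60 fell with both siRNAs in PC3. It was at 2.93 and 2.71 FPKM with siControl, 2.44 and 1.7 with siLARP4A, and 2.24 and 2.23 with siLARP4B there, with changes of -0.43 (SE 0.12, adjusted p 0.0062) and -0.38 (SE 0.12, adjusted p 0.015); the first was lost without siControl replicate 1 or siLARP4A replicate 2, and the second in 6 alternatives. In MG63 DDX60 was at 4.4 and 4.37 FPKM with siControl, 4.64 and 4.86 with siLARP4A, and 4.59 and 4.99 with siLARP4B, with no change past the threshold.

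TRIM21 binds antibody-coated virions in the cytosol and TRIM22 restricts retroviral and other viral transcription. TRIM22, with the larger change of the pair, was at 1.57 and 1.49 FPKM with siControl, 2.97 and 2.87 with siLARP4A, and 4.12 and 4.53 with siLARP4B in MG63. It rose by 0.95 (SE 0.15, adjusted p 3.5e-05) and 1.53 (SE 0.14, adjusted p 1.7e-08). In PC3 it had 6 and 5 fragments with siControl, 3 and 2 with siLARP4A and 12 and 11 with siLARP4B, and did not pass. TRIM21 was at 2.73 and 1.9 FPKM with siControl, 3.2 and 2.97 with siLARP4A, and 2.13 and 2.04 with siLARP4B in PC3 and at 4.23 and 5.17 FPKM with siControl, 5.09 and 4.95 with siLARP4A, and 5.2 and 5.26 with siLARP4B in MG63, and passed in none of the 4 comparisons with siControl.

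STAT2 and IRF9 are subunits of ISGF3, and SP110 is a nuclear body protein. All 3 rose with siLARP4B in both lines, where 7.49% of all tested genes did. IRF9, the most abundant of the 3 with siControl in both lines and the most changed with siLARP4B in MG63, was at 11.3 and 9.0 FPKM with siControl, 5.96 and 5.54 with siLARP4A, and 12.5 and 14.3 with siLARP4B in PC3. It fell with siLARP4A there by -0.82 (SE 0.12, adjusted p 7.4e-06) and rose with siLARP4B by 0.35 (SE 0.11, adjusted p 0.0086), the rise being lost without siControl replicate 2 or siLARP4B replicate 2. In MG63 IRF9 was at 7.82 and 6.97 FPKM with siControl, 8.75 and 8.81 with siLARP4A, and 15.3 and 15.7 with siLARP4B, and rose with siLARP4B by 1.10 (SE 0.11, adjusted p 5.8e-08). Its exons share 1838 bases with a same-strand gene model in GENCODE, so fragments of the 2 could be mixed. STAT2 was at 6.3 and 6.51 FPKM with siControl, 5.15 and 5.47 with siLARP4A, and 9.74 and 10.5 with siLARP4B in PC3 and at 5.53 and 5.04 FPKM with siControl, 4.64 and 5.36 with siLARP4A, and 8.91 and 8.9 with siLARP4B in MG63. It rose with siLARP4B by 0.62 and 0.78, and fell with siLARP4A in PC3 by -0.28 (SE 0.08, adjusted p 0.0097), lost without any 1 of 3 libraries (siControl replicate 1 or 2, or siLARP4A replicate 1). The size of the siLARP4B effect on STAT2 did not differ past the threshold between the lines (-0.16 (SE 0.11, adjusted p 0.32)).

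The remaining members are IFI44L and IFI44, neighbours on chromosome 1 and widely used markers of interferon exposure, IFI35, a binding partner of NMI, XAF1, a pro-apoptotic protein, and EPSTI1. IFI44L was at 1.25 and 1.16 FPKM with siControl, 2.03 and 1.92 with siLARP4A, and 6.44 and 8.29 with siLARP4B in MG63. It rose by 0.74 (SE 0.16, adjusted p 0.001) and 2.64 (SE 0.13, adjusted p 1.3e-12). In PC3 IFI44L was at 0.789 and 0.78 FPKM with siControl, 0.57 and 0.477 with siLARP4A, and 2.05 and 2.64 with siLARP4B, a fall of -0.58 (SE 0.21, adjusted p 0.034) with siLARP4A and a rise of 1.53 (SE 0.16, adjusted p 9.3e-08) with siLARP4B; the fall was lost on log2(FPKM + 1) and on leaving out any 1 of the 4 libraries. IFI44 was at 4.83 and 4.93 FPKM with siControl, 8.13 and 6.74 with siLARP4A, and 7.2 and 7.16 with siLARP4B in PC3 and at 31.4 and 31.7 FPKM with siControl, 36.4 and 37.0 with siLARP4A, and 83.6 and 85.1 with siLARP4B in MG63. Unlike its neighbour it rose with siLARP4A in PC3, by 0.61 (SE 0.10, adjusted p 6.2e-05), as well as with siLARP4B (0.51), and in MG63 it rose by 0.24 and 1.45.

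IFI35 fell with siLARP4B in PC3. It was at 4.1 and 3.6 FPKM with siControl, 2.59 and 3.48 with siLARP4A, and 3.13 and 2.35 with siLARP4B there, a change of -0.52 (SE 0.19, adjusted p 0.028) that was lost in 4 alternatives, and at 14.9 and 16.7 FPKM with siControl, 19.8 and 19.0 with siLARP4A, and 17.1 and 16.1 with siLARP4B in MG63, where it rose with siLARP4A by 0.31 (SE 0.11, adjusted p 0.031). XAF1 was at 3.07 and 3.37 FPKM with siControl, 5.71 and 5.57 with siLARP4A, and 6.41 and 7.49 with siLARP4B in MG63, with rises of 0.83 and 1.14. In PC3 XAF1 had 2 and 5 fragments with siControl, 0 and 0 with siLARP4A and 6 and 6 with siLARP4B. Against a floor of 3 fragments over the siLARP4A group, and with the siControl fragments taken as exact, XAF1 was at least 2.76-fold lower with siLARP4A. Counting error in siControl would lower this bound. EPSTI1 was at 0.747 and 0.523 FPKM with siControl, 1.38 and 1.32 with siLARP4A, and 1.91 and 1.76 with siLARP4B in MG63, with rises of 1.11 and 1.56. In PC3 it had 5 and 4 fragments with siControl and 0 and 1 with siLARP4A, a ratio of 0.0938 with an exact 95% counting interval of 0.00214 to 0.677.

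With siLARP4A, then, OAS1, OAS2, IFITM3, IFI6, IFI44L, XAF1 and EPSTI1 were past the threshold lower in PC3 and higher in MG63, as were 0.779% of all tested genes. Of these calls the PC3 falls of OAS2, IFI44L, XAF1 and EPSTI1 and the MG63 rise of OAS1 were each lost in at least 1 alternative. The interaction term was past the threshold for all 7, though for XAF1 and EPSTI1 the PC3 siLARP4A libraries held at most 1 fragment. With siLARP4B, PARP12 alone was past it in opposite directions, lower in PC3 and higher in MG63, as were 1.99% of all tested genes.

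The genes upstream of the list were read from lists of the pathway. Their counts stand beside the shares of all tested genes that rose and fell, which were 18.8% and 16.3% with siLARP4B in MG63, 14.5% and 11.9% with siLARP4A in MG63, 21.3% and 23.4% with siLARP4B in PC3, and 17.0% and 19.0% with siLARP4A in PC3. Of 9 interferon genes, IFNE alone had enough fragments to be tested, and it did not pass in any of the 4 comparisons with siControl. IFNB1, encoding interferon beta, had 0 fragments in all 6 PC3 libraries, and in MG63 it had 0 and 2 with siControl, 1 and 0 with siLARP4A and 5 and 3 with siLARP4B. The remaining interferon genes had at most 6 fragments in any library, and a poly(A) library at this depth cannot show whether less abundant transcripts were present.

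Among interferon receptors and JAK-STAT genes, 4 of 13 tested rose and 2 fell with siLARP4B in MG63, where the median was 0.03. IFNLR1, the receptor chain specific to lambda interferons, went the other way from the members with siLARP4B, at -0.94 in PC3 and -1.95 in MG63; in MG63 it had 18 and 13 fragments with siControl and 5 and 3 with siLARP4B. For these 13 genes the counts with siLARP4A were 6 higher and 3 lower in PC3 and 3 higher and 1 lower in MG63, and with siLARP4B in PC3 4 higher and 2 lower. With so few genes, counts such as 2 of 13 lower lie near the share of all tested genes.

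Of the nucleic acid sensors and the proteins that act below them, 6 of 15 tested rose and 4 fell with siLARP4B in MG63. The median over the 15 was -0.04 there, so the list as a whole did not rise. DDX58, which encodes RIG-I, was at 2.09 and 1.99 FPKM with siControl, 3.51 and 4.15 with siLARP4A, and 8.4 and 9.61 with siLARP4B in MG63. It stepped up with each siRNA, by 0.93 (SE 0.12, adjusted p 2.7e-06) and 2.17 (SE 0.11, adjusted p 1e-12). In PC3 DDX58 was at 1.09 and 1.29 FPKM with siControl, 1.3 and 1.12 with siLARP4A, and 2.38 and 2.36 with siLARP4B, a rise of 0.94 (SE 0.14, adjusted p 8.1e-06) with siLARP4B and 0.02 with siLARP4A. IFIH1, which encodes MDA5, was at 2.48 and 2.75 FPKM with siControl, 3.5 and 3.26 with siLARP4A, and 7.92 and 9.16 with siLARP4B in MG63, with rises of 0.39 and 1.73, and in PC3 it rose with siLARP4B (0.59) and did not pass with siLARP4A (-0.33). In the other comparisons 6 of the 15 rose and 1 fell with siLARP4A in MG63, 4 rose and 2 fell with siLARP4B in PC3, and 5 rose and 2 fell with siLARP4A in PC3. IRF7 is not reported here because its models lie at several places.

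Of the interferon gamma and antigen presentation genes 14 of 26 could be tested; the HLA class I genes and others with copies elsewhere could not. With siLARP4B in MG63 10 of the 14 rose and 0 fell, and with siLARP4A there 7 rose and 0 fell. CXCL10, a chemokine for T cells, rose by 2.58 (SE 0.33, adjusted p 4.8e-06) with siLARP4B in MG63, from 14 and 8 to 60 and 75 fragments, and CXCL11, its relative, rose by 1.69 (SE 0.50, adjusted p 0.011). CXCL10 had at most 1 fragment in any PC3 library. With siLARP4A in PC3 6 of the 14 fell and 2 rose, and with siLARP4B there 5 rose and 0 fell. GBP1, a guanylate-binding protein named here after its values were seen, was at -1.54 and 0.35 in PC3 and 1.13 and 1.46 in MG63, siLARP4A first, all past the threshold.

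Leukocyte markers, read because blood cells express many of the members strongly, summed to between 2.01 and 2.17 FPKM in PC3 siControl libraries, between 3.07 and 3.83 with siLARP4A and between 2.64 and 3.28 with siLARP4B, and in MG63 to between 2.32 and 2.66, between 2.87 and 2.92, and between 1.24 and 1.38. LYZ rose with both siRNAs in PC3 (0.97 and 1.47), and CD14 fell with siLARP4B in MG63 (-1.02), where the members rose most. Epithelial markers in PC3 summed to between 648 and 656 FPKM with siControl, 729 and 758 with siLARP4A and 689 and 705 with siLARP4B. Mesenchymal markers in MG63 summed to between 1940 and 1980 with siControl, between 2600 and 2700 with siLARP4A and between 1930 and 2150 with siLARP4B. The part of these shifts in the results was not tested.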

How the data were processed

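RNA sequencing of 12 libraries was read from 1 table per library of 86394 transcript models. Per the submitters' processing notes, FastQC, HISAT2, featureCounts and edgeR were used and the build was hg38; versions, the annotation and strand handling are not given in the sources used here. Per the file headers, the deposited tables give fragment counts per model, an FPM signal (the count over 1 total per library, scaled) and FPKM (FPM per kilobase of the model). The deposited counts are whole numbers, and a fragment shared by models is counted in each.

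For each symbol the model with the most fragments over 12 libraries was used, on chromosomes 1 to 22 and X; 1744 symbols with models elsewhere or at several loci were left out, leaving 26419. Coordinates are the tables' own, from base 1. The two-sided quasi-likelihood F-test of edgeR 4.0.16 (under R 4.3.3) was run on the counts, with TMM scaling, edgeR's default filter and 1 mean for each of the 6 groups; p-values were adjusted within each of 9 comparisons (each siRNA against siControl, siLARP4A against siLARP4B, siControl against siControl between the lines, and the difference between lines in each effect). The biological coefficient of variation was 4.21% and the prior degrees of freedom 15.5, so with 2 libraries per group most of a gene's spread is borrowed from other genes. The code was tested on simulated counts. Counting error alone limits genes with few fragments. The interval given for EPSTI1 covers counting error only, and the floor given for XAF1 leaves out counting error in siControl.

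The members, their roles and the pathway and marker lists were chosen with earlier results of these data known. Every member may be named; values in all libraries are given for the most changed (MG63, siLARP4B) and most abundant member of each role and for members lower in any comparison or opposite between lines. From each pathway list the 2 genes most changed there are named, with IFNB1, DDX58 and IFIH1; a gene that this rule also covers is not reported here. Promoter windows are RefSeq's; exon overlaps are from GENCODE release 29. Alternatives were DESeq2 1.42.0, library totals without TMM, 2 other filters, limma 3.58.1 on log2(FPKM + 1) and log2(FPKM + 0.1), only the libraries of 1 line, all models of a symbol summed, a table of deduplicated fragments for PC3 siControl replicate 2, a replicate block, and leaving out each library. Nothing in the labels says whether replicate numbers pair the libraries. Same-numbered libraries had correlations of their deviations from -0.027 to 0.049 across all genes and from -0.103 to 0.086 across the 10744 genes above 5 CPM. Such values show no strong shared shift, and they cannot show that no pairing exists.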

Additional observations from a re-analysis of the deposited data

Results flagged for a closer look

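The difference between the lines in the effect of an siRNA was itself tested, as the interaction term of edgeR, and every member that passed is given here as the log2 effect in PC3 minus that in MG63. With siLARP4A the signed effect was lower in PC3 by over 1 on this scale for MX1 (-1.52), OAS1 (-1.22), OAS2 (-1.39), UBA7 (-1.47), BST2 (-1.16), IFITM1 (-2.07), IFI6 (-1.21), TRIM22 (-2.30), IRF9 (-1.09) and IFI44L (-1.31). Smaller differences in the same direction were OAS3 (-0.53), IFIT3 (-0.37), ISG15 (-0.72), HERC6 (-0.76), IFITM3 (-0.74), PLSCR1 (-0.55), LGALS3BP (-0.87), PARP9 (-0.42), PARP12 (-0.41), PARP14 (-0.38), DDX60 (-0.57) and IFI35 (-0.69), and IFI44 was higher in PC3 (0.37). XAF1 and EPSTI1 also passed and were left out after their values were seen, because the PC3 siLARP4A libraries hold at most 1 fragment of either. TRIM22 rests on few fragments too, 5 to 6 in PC3 libraries with siControl and 2 to 3 with siLARP4A. Of the calls listed, those of MX1, BST2, IFITM1 and TRIM22 were each lost in at least 1 alternative. So were those of IFIT3, HERC6, PARP9, PARP12, PARP14, DDX60, IFI35 and IFI44.

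With siLARP4B the signed effect was lower in PC3 by over 1 for MX1 (-1.90), OAS1 (-1.68), OAS2 (-1.18), OAS3 (-1.45), OASL (-1.32), IFIT3 (-1.20), ISG15 (-1.17), HERC5 (-1.24), HERC6 (-1.09), USP18 (-1.07), PLSCR1 (-1.14), RSAD2 (-1.21), CMPK2 (-1.30) and IFI44L (-1.11). By less than 1 it was lower for ISG20 (-0.74), IFIT1 (-0.60), IFIT2 (-0.61), IFIT5 (-0.49), IFITM3 (-0.37), IFI6 (-0.98), PARP9 (-0.42), DTX3L (-0.67), PARP12 (-0.88), PARP14 (-0.74), DDX60 (-0.53), DDX60L (-0.61), SAMD9 (-0.70), IRF9 (-0.74), IFI44 (-0.93) and IFI35 (-0.62). LGALS3BP differed in the opposite direction (0.30). The calls of ISG20, IFIT1, IFIT2, RSAD2, CMPK2, DDX60, DDX60L, SAMD9, IFI35 and LGALS3BP were each lost in at least 1 alternative. The PC3 value was itself below 0 for OAS3, ISG20, HERC5, PLSCR1, DTX3L, PARP12, DDX60, DDX60L and IFI35, and at 0.00 for PARP14; it was larger in size than the MG63 value for ISG20, DDX60 and IFI35.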

How the results depend on the processing

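In all 9 comparisons the member median kept its sign under every alternative run. The 35 rises with siLARP4B in MG63 passed in every alternative that gave them a value. Every alternative kept 16 of 21 rises with siLARP4B in PC3, 11 of 21 with siLARP4A in MG63 and 9 of 18 falls with siLARP4A in PC3, 21 of 30 lower siLARP4B effects in PC3 and 11 of 24 lower siLARP4A effects. On log2(FPKM + 1), which understates the change of low genes, medians were -0.10 (PC3 siLARP4A), 0.91 (MG63 siLARP4B), -0.31 and -0.71 (siLARP4A against siLARP4B in PC3 and MG63), -0.41 (line difference for siLARP4A) and -0.50 (siControl, PC3 against MG63); on log2(FPKM + 0.1) the last was -0.75. Without TMM it was -0.78, with the median of all genes at 0.16, and the line difference for siLARP4B was -0.59. Leaving out each library gave medians from -0.33 to -0.18 (PC3 siLARP4A), 0.29 to 0.55 (PC3 siLARP4B) and -1.03 to -0.84 (siControl between lines, lowest without PC3 siControl replicate 1), and counts past the threshold from 13 to 17 (MG63 siLARP4A) and 13 to 20 (line difference for siLARP4A). A replicate block changed the count past the threshold from 25 to 22 for the line difference for siLARP4A, from 40 to 38 for siControl between lines and from 25 to 26 for siLARP4B in PC3, and left the other 6 counts as they were. As no label says that the numbers pair the libraries, the block is not read further. The cause of these shifts was not tested. A sign change of a value past the threshold in neither fit was not counted as a reversal, and members for which DESeq2 gives no adjusted p were left out of its comparison. Over single members, 5057 of 5433 alternative values stayed on the same side of the threshold, 289 lost a call and 87 gained one. With 2 libraries a group and few fragments in PC3, MX2, RTP4, TRIM22, XAF1 and EPSTI1 are limited by depth.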
